A study of Macaca mulatta with 24 samples.

Results

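The second interval after the higher radiation dose was examined: jejunum taken on day 7 was compared with jejunum taken on day 4 after 7.4-Gy total-body irradiation (TBI). The members were the 4 arrays of each day, chosen by their titles, which made 8 arrays of the 24 in the series. The animals were young adult male rhesus macaques given a single gamma-ray exposure of the whole body from a cobalt source, and the tissue was a full-thickness piece of jejunum, so that epithelium, lamina propria, vessels, nerves and muscle were all in each RNA sample. Each array held the RNA of 1 animal. Day 4 and day 7 were different animals, because each was killed for tissue. The same series held 4 unirradiated control arrays, whose labels give day 4 and a dose of 0 Gy, and 4 arrays each of day 4 and day 7 after 6.7 Gy. The controls were used only to tell a return to baseline from a new change, and the 6.7-Gy arrays served as separate animals in which the same interval had been sampled.

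The jejunal epithelium is renewed from dividing cells in the crypts, whose daughters climb the villus as absorptive enterocytes or as goblet, enteroendocrine and other secretory cells. Ionizing radiation breaks DNA and activates the transcription factor p53, which arrests or kills the crypt cells while the villi go on shedding, so that the epithelium thins until surviving crypts divide again. The lamina propria meanwhile takes up inflammatory cells and lays down matrix. Day 4 and day 7 fall in this period of loss and regrowth, and the comparison asked which transcripts moved between these days, and whether they moved back towards the unirradiated level or away from it.

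Levels below are log2 processed signals minus the array's own 75th percentile of signal, so that a level of 0 is a bright probe and a difference of 1 is a 2-fold change. Levels of different probes were not compared with each other. A probe was counted as changed if it differed by at least 2-fold with a Benjamini-Hochberg adjusted p below 0.05 in limma, over 28168 probes, those flagged as well above background throughout 1 or more of the groups. Arrays of slide 5 detected fewer probes than the others. Replicate 3 of day 4 and replicate 1 of day 7 lay on it, with 39.4% and 46.7% of probes well above background, against 58.9% to 85.5% on the remaining 6. The scan days were balanced between day 4 and day 7, with 2 arrays of each day in each. They were not balanced against the controls. All 4 control arrays lay at position 1, on slides 1 to 4, and were scanned on scan day 1. Slides 5 and 6, which made up scan day 2, held no control array. Position and distance from control therefore cannot be told apart. Day 4 arrays lay at position 2 of a slide and day 7 arrays at positions 3 and 4, so that position and day cannot be told apart, and this held for the 6.7-Gy arrays too, whose day 4 arrays lay at positions 1 and 2 and whose day 7 arrays all lay at position 3. Because whole tissue was measured, fewer cells of a type and less RNA per cell cannot be told apart anywhere below.

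Between day 4 and day 7 after 7.4-Gy TBI, 463 probes changed, 240 higher and 223 lower on day 7, which was 1.64% of the probes tested (0.852% higher and 0.792% lower). They included 285 probes with a gene symbol, of 234 different symbols. All 8 arrays measured 307 of the 463 above background, and in 359 the day 4 and day 7 arrays did not overlap, against 9.95% of all probes tested. The median change over all probes tested was 0.04. Each of the 463 had the same direction within both scan days, as 455 did within both slide 5 and slide 6, which held 1 array of each day. Because the 463 were chosen on these same arrays, that agreement was largely fixed in advance and is no evidence about scan day or slide. The list leaned on single arrays: 184 probes were called without day 4 replicate 1, 246 without day 4 replicate 3, 249 without day 7 replicate 1 and 698 without day 4 replicate 4, and 67 without the arrays of slide 5. Fitting the 8 arrays alone left 12 calls, and the test of each probe that the study's methods name left 0 after adjustment, with 700 probes at an unadjusted p below 0.05 and 2-fold. With arrays scaled on the probes detected on all arrays instead, the split was 188 higher and 266 lower.

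Set against the controls, the changed probes fell into several kinds. In 193, the most common kind, both means were within 2-fold of control. Since the days differed by at least 2-fold, such means can only lie on opposite sides of it. In 154 the day 4 mean was at least 2-fold from the control mean and the day 7 mean was within 2-fold of it, and a further 16, all of them lower on day 7, had come part of the way back. In 97 the day 4 mean was within 2-fold of control and the day 7 mean was not, a new change. Another 3 crossed from at least 2-fold above control to at least 2-fold below. None had moved further from control in the same direction. Among 307 changed probes measured above background on the 8 arrays and all 4 controls, the numbers were 104 returned, 7 partly returned, 53 new, 141 near on both days and 2 crossed. Of the probes higher on day 7, 74 had returned from a low day 4 level and 58 were new rises, and of those lower on day 7, 80 had returned from a high day 4 level and 39 were new falls. The day 4 arrays enter both the change and the distance from control, so these counts are descriptions and were not tested. In all, 2.7% of probes differed from control on day 4 and 1.3% on day 7. The controls shared no array position with either day, and the part of position in these differences and kinds was not tested.

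**Figure D1:**
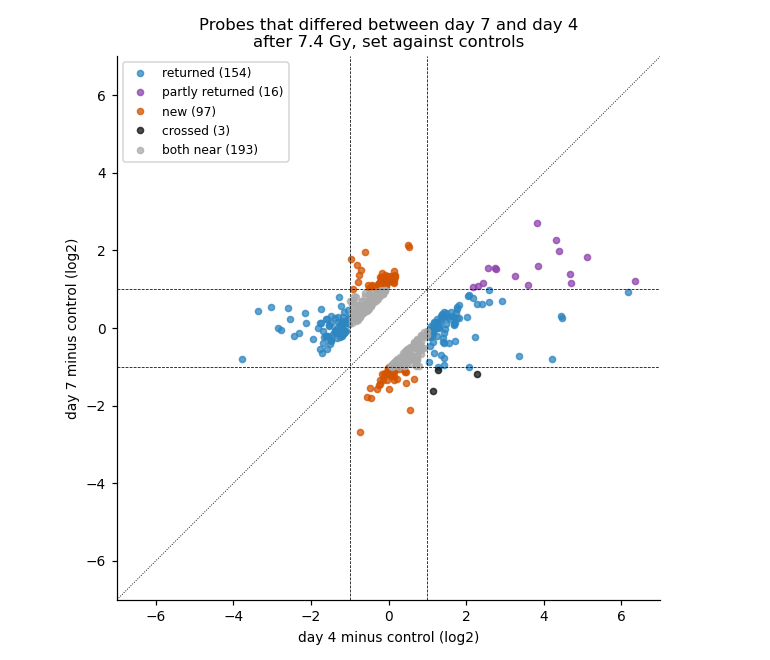
Day 4 minus control (horizontal, log2) and day 7 minus control (vertical, log2) of the 463 probes that changed between day 4 and day 7 after 7.4 Gy, each a difference of means of 4 arrays, with dashed lines at 2-fold and a dotted line of equality. The 154 returned probes lie left and right of the centre and the 97 new changes above and below it.

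Among genes with a symbol that were measured on all 8 arrays without overlap of the days, S100G and GSTA1 rose most. S100G, the calcium-binding protein calbindin-D9k of the absorptive cell, stood at 3.55, 5.85, 5.40 and 4.51 in the 4 day 4 animals and at 8.29, 7.31, 9.14 and 6.40 in the 4 day 7 animals. Every day 7 array was above every day 4 array. The rise was 7.78-fold (2.96 ± 0.58 on the log2 scale, SE, limma, adjusted p = 0.00843), which left the day 7 mean 0.80 below the control level of 8.59 ± 0.66 (SD, n = 4). After 6.7 Gy the rise of S100G was 2.96 as well (adjusted p = 0.00832). It was the 1 called of 7 tested in the calcium and vitamin D list, against 0.833% of all symbols called higher and 1.73% in either direction.

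Of 5 glutathione S-transferases tested, enzymes that conjugate reactive compounds to glutathione, GSTA1 and GSTA3 rose. GSTA1 stood at 1.26, 3.97, 5.09 and 4.56 on day 4 and at 6.86, 5.85, 7.35 and 6.22 on day 7. The day 7 mean was at the control level, 6.56 ± 0.29 (SD, n = 4), and day 4 replicate 1 was the lowest array by far. The rise was 7.21-fold (2.85 ± 0.62, limma, adjusted p = 0.0139), and 2.03 on the log2 scale without day 4 replicate 1. A second GSTA1 probe rose by 2.25. GSTA3 rose 3.12-fold (1.64 ± 0.43, limma, adjusted p = 0.034), a call kept in 3 of the 8 fits that leave out 1 array. The transcripts of this family are alike in sequence and their probes may share signal. ALDH1A1, which makes retinoic acid from retinaldehyde, rose 3.06-fold on one probe and 2.43-fold on another, calls lost without day 4 replicate 1 or day 7 replicate 1 (adjusted p up to 0.0562). In the drug metabolism list these 3 genes rose and none fell of 29 tested, against 1.73% of all symbols at 1 probe each, 0.833% rising and 0.901% falling. The changes of the list ran from -1.26 to 2.85, with a median of 0.18 and 19 of 29 positive.

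NQO1, a quinone reductase that is a target of the aryl hydrocarbon receptor and of NRF2, was at -0.71, -1.02, -0.91 and -1.36 on day 4 and at 0.36, 0.47, 1.21 and 0.51 on day 7. The groups did not overlap, and all 3 NQO1 probes rose, by 1.46 to 1.64. The rise was 3.11-fold (1.64 ± 0.29, limma, adjusted p = 0.0047), from 0.92 below control to 0.72 above it. CYP1A1, the receptor's best known target, varied widely. It was at 6.22, -3.62, 2.47 and -2.72 on day 4 and at 6.17, 1.50, 4.09 and 2.70 on day 7. Its groups overlapped (3.03 ± 1.57, limma, adjusted p = 0.292). Of the 6 receptor targets tested, NQO1 was the only one called, against 0.833% of all symbols called higher.

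Other genes rose to the control level or past it. FXYD3, a regulator of the sodium pump, went from 0.21, -0.00, 0.38 and 0.86 to 2.88, 1.61, 2.69 and 1.58, a 3.55-fold rise (1.83 ± 0.32, limma, adjusted p = 0.00486) to 0.01 from the control mean. DDAH1, which breaks down the methylarginines that inhibit nitric oxide synthase, went from 1.39, 1.70, 1.56 and 1.93 to 3.38, 3.47, 2.92 and 3.28 (3.07-fold, limma, adjusted p = 0.00128), from below the control mean of 2.58 to above it. MCUB, a subunit that restrains the mitochondrial calcium uniporter, rose 3.09-fold from 1.69 below control, a call lost without day 4 replicate 1 (adjusted p = 0.0502). SLC27A4, a fatty acid transport protein, rose 2.65-fold, and GATA4, the transcription factor of proximal intestinal identity, rose 2.27-fold, both back to within 0.21 of control. The SLC27A4 call was kept in 6 of the 8 left-out fits and the GATA4 call in 8, and 1 day 4 array was not well above background for GATA4, whose change was 0.33 and did not pass with all signals raised to a common floor. PIGR, which carries IgA across the epithelium, rose 2.54-fold to 0.01 above control, a call kept in 2 of the 8 left-out fits, with overlap through day 4 replicate 4. TTR, the carrier of thyroxine and retinol-binding protein, was a new rise. It stood at 0.93, 1.14, 1.19 and 0.82 on day 4 and at 2.72, 1.96, 2.84 and 3.10 on day 7, against 0.51 ± 0.71 (SD, n = 4) in controls (3.11-fold, limma, adjusted p = 0.00466). DMBT1, a scavenger glycoprotein of mucosal defence, was 4.58-fold higher but ranged from 0.34 to 2.85 on day 4, and its call was kept in 2 of the 8 left-out fits. The probe named LOC723103 was kept in 2 as well (4.40-fold) and the probe named LOC706971 in 4 (4.70-fold).

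**Figure D2:**
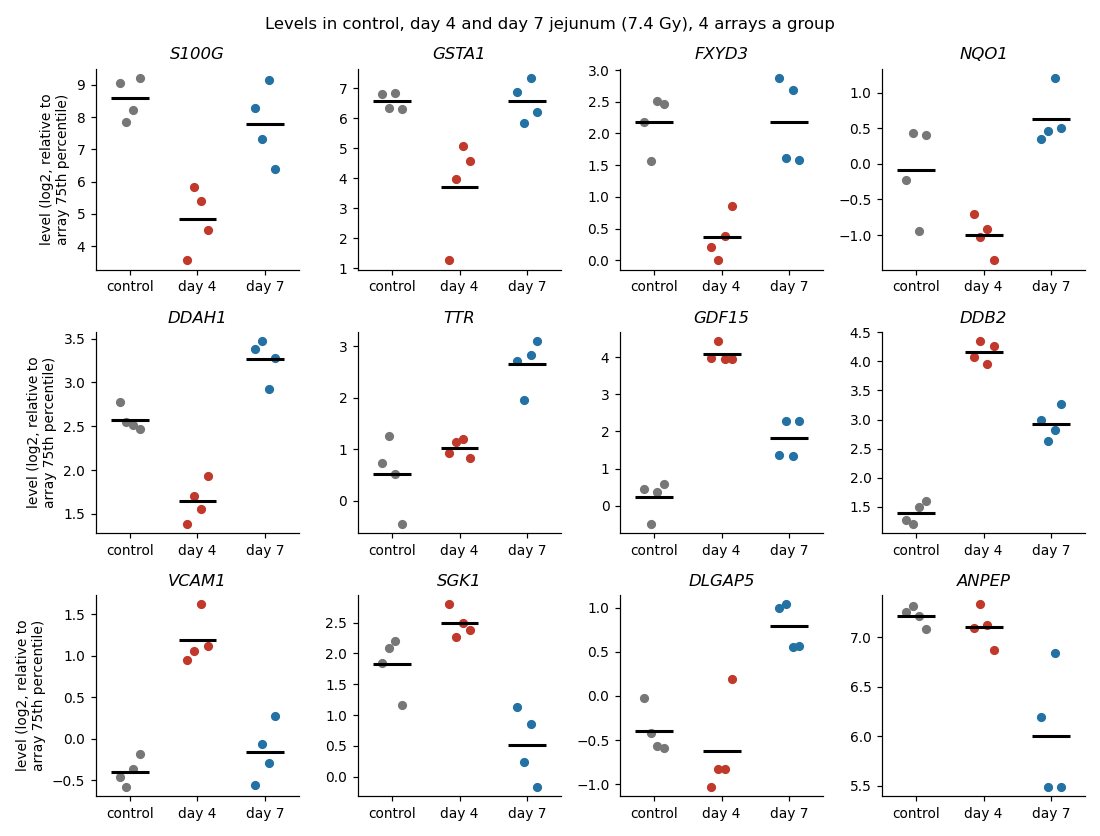
Levels (log2, relative to the array's 75th percentile) of 12 genes in control, day 4 and day 7 jejunum after 7.4 Gy; each point is 1 animal and each line the mean of 4, and the vertical scale differs between panels. S100G, GSTA1 and FXYD3 were lower on day 4 than in both other groups, GDF15, DDB2 and VCAM1 were high on day 4, and TTR, DLGAP5 and ANPEP left the control level on day 7.

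Some genes of cell division rose on day 7. Of 30 tested genes of the G2/M and mitosis list, 14 rose and none fell, against 0.833% and 0.901% of all symbols, and all 30 had a positive change, with a median of 1.12. The 14 were KIF23, DLGAP5, CENPE, CDC20, BUB1, CDC25C, HMMR, AURKA, KIFC1, TOP2A, CCNB1, CDK1, PLK1 and CCNA2, which encode spindle motors, kinetochore and checkpoint proteins, mitotic kinases and their cyclins. The rise was new for 12 of the 14: the list's median stood 0.00 from control on day 4 and 1.17 above it on day 7. The list was chosen with results of these samples known, and its direction is no independent evidence.

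DLGAP5, a protein of the mitotic spindle, stood at -1.03, -0.83, -0.83 and 0.19 on day 4 and at 1.00, 1.04, 0.56 and 0.57 on day 7. The groups did not overlap, and the control level was -0.40 ± 0.26 (SD, n = 4, 2.66-fold, limma, adjusted p = 0.00776). KIF23, a motor of the midbody, went from -3.56, -3.42, -4.01 and -3.63 to -2.42, -1.52, -2.32 and -2.26 (1.53 on the log2 scale, limma, adjusted p = 0.00387), but 1 of its 4 day 4 arrays was not well above background, and with all signals raised to a common floor the KIF23 change was 0.08 and did not pass. TOP2A, the topoisomerase of dividing cells, was at 1.01, 1.32, 1.25 and 2.37 on day 4 and at 2.72, 3.28, 2.19 and 2.35 on day 7. CCNB1, the mitotic cyclin B1, was at 0.51, 0.68, 1.06 and 2.23 and then at 2.28, 2.54, 2.12 and 2.04. In both genes day 4 replicate 4 already stood within the day 7 range. The same animal set the list apart as a whole: the median level of the 30 genes relative to the control mean was -0.34, -0.23, -0.09 and 0.76 in the day 4 animals and 1.29, 1.54, 0.78 and 0.91 in the day 7 animals. Without that array 22 genes were called, and 3 were called without day 4 replicate 1, 7 without replicate 2, 5 without replicate 3, 6 without day 7 replicate 1, 6 without day 7 replicate 2, 11 without replicate 3, 15 without replicate 4 and 1 without the arrays of slide 5. The median change stayed between 0.94 and 1.37 when any 1 array was left out, and was 1.02 without slide 5. All 8 arrays measured 15 of the 30 genes above background. PTTG1, securin, was called on dimmer probes only. The number called was 7 with all signals raised to a common floor and 9 with arrays scaled on the probes detected on all arrays.

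Of 32 DNA replication genes tested, 1 rose, against 0.833% of all symbols. It was TK1, the thymidine kinase of S phase, which rose 2.04-fold (limma, adjusted p = 0.0443), and its call was kept in 3 of the 8 left-out fits. The median was 0.45 and 31 of 32 changes were positive, against 53.1% of all symbols. PCNA, the sliding clamp of the replication fork, was 2.36 ± 0.34 on day 4 and 2.63 ± 0.42 on day 7 (SD, n = 4 each), a change of 0.27 with an adjusted p of 0.509 in limma. No gene of the crypt base and progenitor list passed, of 20 tested, and 1, CD44, an adhesion receptor, had an adjusted p below the threshold in limma at a smaller fold (-0.70, adjusted p = 0.0347). LGR5, the receptor that marks crypt base stem cells, changed by -0.11 ± 0.22 (limma, adjusted p = 0.836), and OLFM4, another gene of those cells, stood between 0.26 and 0.94 on day 4 and between -1.85 and 0.40 on day 7 (limma, adjusted p = 0.515).

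**Figure D3:**
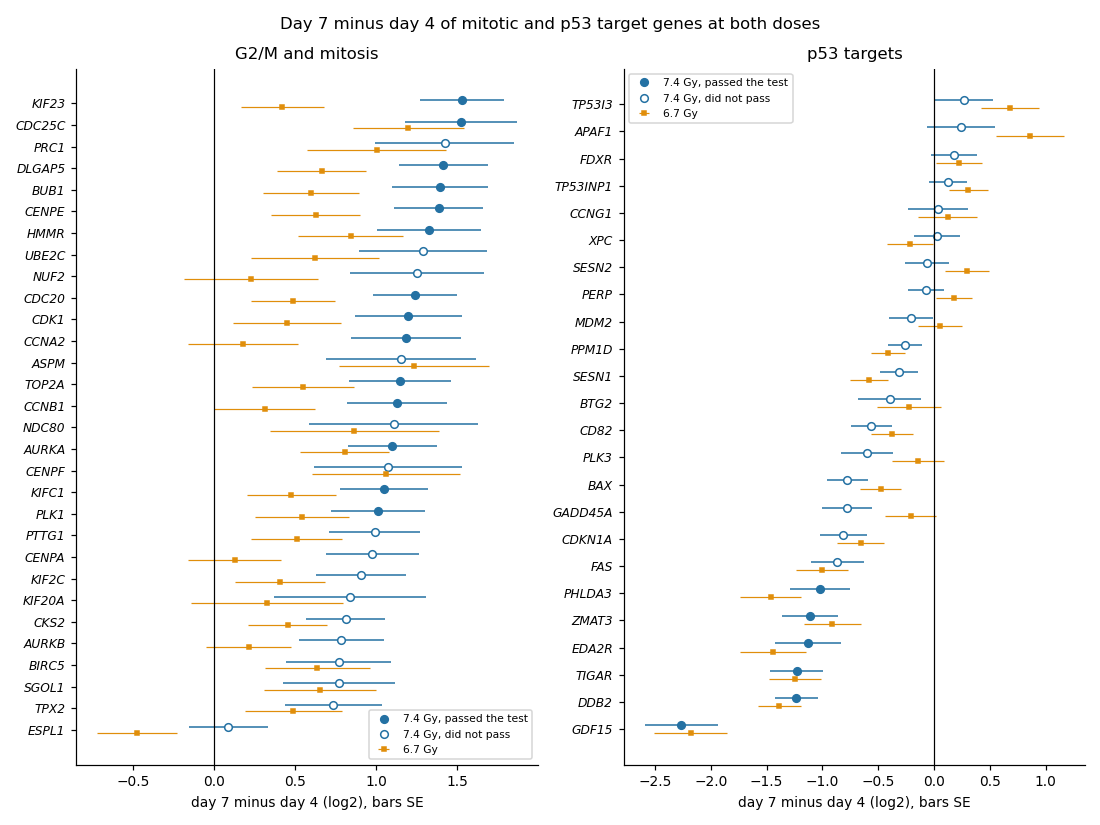
Change from day 4 to day 7 (log2, bars SE) of each tested gene of the mitosis list (left) and of the p53 target list (right), after 7.4 Gy (circles, filled where the test was passed) and after 6.7 Gy (squares); 1 probe a gene. After 7.4 Gy all 30 mitotic genes lie right of 0 and 14 passed, and 6 of 24 p53 targets passed, all lower on day 7.

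Some p53 targets fell, and most of those had not returned to control. Of 24 tested, 6 fell and none rose, against 0.901% and 0.833% of all symbols, and the median change of the list was -0.48. They were GDF15, DDB2, TIGAR, ZMAT3, EDA2R and PHLDA3, of which 5 had come back part of the way. GDF15, a stress-induced cytokine of the TGF-beta family, stood at 3.97, 4.44, 3.96 and 3.96 on day 4 and at 1.36, 2.29, 1.35 and 2.27 on day 7. The groups were far apart, and the fall was 4.81-fold (-2.26 ± 0.33, limma, adjusted p = 0.00161). On day 7 it was still 1.59 above the control level of 0.23 ± 0.48 (SD, n = 4, limma, adjusted p = 0.0163). DDB2, which recognises ultraviolet damage in DNA, went from 4.07, 4.35, 3.96 and 4.26 to 3.00, 2.64, 2.81 and 3.26, a 2.35-fold fall (limma, adjusted p = 0.00237) that left it 1.53 above control. Its 2 probes fell by 1.23 and 1.21.

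EDA2R, a receptor of the TNF receptor family, stood furthest above control on day 7 among the p53 targets called. It was at 1.25, 0.57, 1.19 and 0.87 on day 4 and at -0.24, -0.44, -0.66 and 0.71 on day 7, and so overlapped through day 7 replicate 4, 0.71, with controls at -2.85 ± 0.24 (SD, n = 4). The fall was 2.19-fold (limma, adjusted p = 0.0329), kept in 3 of the 8 left-out fits. CDKN1A, the cell cycle inhibitor p21, was 0.81 lower on day 7 with no overlap (limma, adjusted p = 0.0336), short of 2-fold, and lay 0.24 above control. For MDM2, which marks p53 for destruction, the probes disagreed: the brighter one changed by -0.21 (limma, adjusted p = 0.617) and did not differ from control on day 4, whereas the dimmer one fell by 1.23 (limma, adjusted p = 0.00372) from -1.24, -1.07, -1.19 and -1.04 to -2.67, -2.34, -2.31 and -2.12, with controls at -3.44 ± 0.17 (SD, n = 4). FAS, the death receptor, was called on 1 of its probes, with falls of 1.11 and 0.87. The number of p53 targets called was 3 without day 4 replicate 1, 3 without day 7 replicate 1 and 2 without the arrays of slide 5.

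Some inflammatory genes that had been high on day 4 were lower on day 7. Of 27 tested targets of TNF and NF-kB, 5 fell (VCAM1, IER3, TNFAIP3, BCL2A1 and CD83) and none rose, against 0.901% and 0.833% of all symbols, with a median of -0.54. VCAM1, the adhesion molecule by which activated endothelium holds leukocytes, went from 0.95, 1.05, 1.62 and 1.12 to -0.55, -0.07, -0.29 and 0.27 (2.54-fold, limma, adjusted p = 0.00179) and so to 0.24 above control. IER3, an immediate early gene of stress, fell 2.34-fold (limma, adjusted p = 0.0138) from -0.67, -0.61, -0.31 and -0.32 to -2.12, -1.63, -1.90 and -1.17, and lost its call without day 7 replicate 1 (adjusted p = 0.0507). The number of these targets called was 1 without day 7 replicate 1, 3 without day 7 replicate 2 or 3, 3 without day 4 replicate 3 or 4, and 1 without slide 5.

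Among 31 chemokines tested, CXCL14 and CCL21 fell and none rose, against 0.901% and 0.833% of all symbols. CCL4L1, an inflammatory chemokine outside the list and named after its values were seen, fell too, by 1.11 and 1.04 on its 2 probes (limma, adjusted p = 0.0287 and 0.0374), back to within 0.38 of control. CCL21, which draws T cells and dendritic cells along lymphatics, fell 2.18-fold to 0.23 above control, a call kept in 3 of the 8 left-out fits. CXCL14, an epithelial chemokine present without injury, was at the control level on day 4 and fell 2.01-fold from 3.53, 3.55, 3.25 and 2.98 to 2.28, 2.01, 2.65 and 2.34, which was a new change (limma, adjusted p = 0.0101) kept in 4 of the 8 left-out fits. Among other inflammatory members, CCL2, CXCL8 and CCL19 did not pass. CCL2, the monocyte attractant, was at -0.39, -0.35, 0.08 and -0.73 on day 4 and at -1.03, -1.31, -2.48 and -1.52 on day 7 with no overlap (limma, adjusted p = 0.122). CXCL8, the neutrophil attractant, ranged from -3.40 to -0.93 on day 4 and from -5.28 to -2.36 on day 7 (limma, adjusted p = 0.1), and CCL19 from 0.03 to 1.87 and from -1.87 to 0.16 (adjusted p = 0.109). TNF changed by -1.08 ± 0.44 (limma, adjusted p = 0.161). On average these genes were lower on day 7, but none of the 4 passed.

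DARC, the atypical chemokine receptor of venules now named ACKR1, was among the 12 largest falls. It went from 1.58, 1.10, 1.63 and 1.39 to -0.42, 0.03, -0.33 and 0.38, a 2.85-fold fall (limma, adjusted p = 0.00233) to 0.25 above control. RGS16, which shortens signalling through G proteins, fell 2.82-fold (limma, adjusted p = 0.00316) from 1.14 above control. VIP, the neuropeptide of enteric secretomotor nerves, fell 2.93-fold from 0.93, 0.35, 0.10 and 0.45 to -1.51, -0.80, -0.70 and -1.38 (limma, adjusted p = 0.0239), and its call was lost without day 4 replicate 1 or day 7 replicate 1 (adjusted p up to 0.0909). HPSE, heparanase, which cleaves heparan sulphate, fell 2.89-fold, kept in 4 of the 8 left-out fits.

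Markers of connective tissue, vessels, nerves and muscle had mostly negative changes, and few members passed. Of all symbols 46.9% had a negative change and 0.901% were called lower. Of the matrix and fibroblast list 19 of 20 changes were negative, with a median of -0.68 and none called; 8 had an unadjusted p below 0.05. Endothelium gave 12 of 12 negative changes and 1 call, KDR, the VEGF receptor (2.04-fold, limma, adjusted p = 0.0343, kept in 2 of the 8 left-out fits). Smooth muscle gave 10 of 10 and 1 call, ACTA2, smooth muscle actin (2.02-fold, limma, adjusted p = 0.0251, kept in 2). Enteric neurons and glia gave 10 of 12, and macrophages and dendritic cells 11 of 14 with CSF1R, the receptor of the macrophage growth factor, called (2.02-fold, limma, adjusted p = 0.00899, kept in 4). The summed linear signal of these lists, relative to each array's 75th percentile, moved with the same sign. For endothelium it was 6.85 to 9.60 in controls, 11.3 to 14.7 on day 4 and 6.63 to 10.1 on day 7. For macrophages and dendritic cells it was 71.8 to 87.7, 112 to 126 and 60.1 to 89.8. For matrix and fibroblasts, 144 to 215, 244 to 358 and 147 to 277. In no tested member of these lists was the probe below background on all 4 arrays of day 4 or of day 7. In the matrix list day 7 replicate 4 stood apart, with a median of 1.07 relative to control, against -0.16, 0.28 and 0.22 in the other 3. The part of these cells in the falls of VCAM1, DARC, VIP and the chemokines was not tested.

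Coagulation genes gave 15 negative changes of 15, with a median of -0.77, and 2 calls, against 0.901% of all symbols called lower. SERPINE2, an inhibitor of thrombin, fell 3.03-fold, and F3, tissue factor, passed at -1.28 but was well above background on 3 of 4 arrays of each day, and the F3 change was -0.05 with all signals raised to a common floor. TIMP1, the inhibitor of matrix metalloproteinases, fell 2.08-fold from 1.38 above control to 0.33 above it. These calls were kept in 4, 3 and 3 of the 8 left-out fits. MMP2, a gelatinase of stroma, changed by -0.63 (limma, adjusted p = 0.21). MMP12, the macrophage elastase, was at 0.31, 0.26, -0.09 and -2.45 on day 4 and at -4.12, -0.75, -3.01 and 0.15 on day 7, so that its groups overlapped (limma, adjusted p = 0.361). Of 12 genes of wound-associated epithelium, 11 had negative changes. ANXA3, a calcium-dependent phospholipid-binding protein, was at 0.70, -0.12, 0.73 and -1.46 on day 4 and at -2.70, -1.21, -2.74 and -0.73 on day 7. It fell 3.50-fold (limma, adjusted p = 0.0314) with overlap, and the day 7 minus day 4 difference was -3.43 within slide 5 and 0.25 within slide 6. Its call was kept in 3 of the 8 left-out fits.

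Several epithelial and signalling genes fell to below the control level. SGK1, a kinase that raises sodium uptake under mineralocorticoids and glucocorticoids, stood at 2.80, 2.27, 2.49 and 2.39 on day 4 and at 1.13, 0.24, 0.85 and -0.17 on day 7. The groups did not overlap, and the day 7 mean lay 1.31 below the control level of 1.83 ± 0.47 (SD, n = 4; 3.92-fold between days, limma, adjusted p = 0.00195). SLC22A4, a transporter of ergothioneine and carnitine, went from -0.11, -0.84, -0.14 and -0.72 to -2.10, -1.70, -1.70 and -2.56, which was 1.13 below control (2.95-fold, limma, adjusted p = 0.00322). BMP2, a ligand that restrains growth at the villus, fell 2.88-fold (limma, adjusted p = 0.00413) from 0.70 above control to 0.82 below. LOH12CR1, now named BORCS5, a subunit of a complex that moves lysosomes, fell 3.14-fold (limma, adjusted p = 0.00218) from 0.09, -0.06, 0.15 and -0.78 to -1.83, -1.82, -1.70 and -1.86.

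GUCA2A, guanylin, the peptide that drives fluid secretion into the gut, was at 5.06, 4.62, 4.43 and 4.54 on day 4 and at 2.27, 3.88, 1.96 and 2.30 on day 7. It fell 4.17-fold (limma, adjusted p = 0.0145) from 1.36 above control to 0.70 below, and lost its call without day 4 replicate 1 (adjusted p = 0.0564). CST6, an inhibitor of cathepsins, fell 4.13-fold and stayed 2.26 above control, and EDN2, an endothelin of the villus epithelium, fell 3.48-fold to 0.64 below it. These were kept in 2 and 5 of the 8 left-out fits. LCN15, a lipocalin, was at 0.70, 0.86, 0.71 and 0.31 on day 4 and at -2.48, -1.53, -2.88 and -3.61 on day 7, a fitted fall of 3.27 on the log2 scale (limma, adjusted p = 0.00233). Its probe was well above background on 3 of the 4 day 7 arrays, and with all signals raised to a common floor the LCN15 change was -2.42 and still passed.

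Enterocyte genes of the villus did not move as 1 group. Of 21 tested brush border genes ANPEP and SLC6A19 fell and none rose, against 0.901% and 0.833% of all symbols, and 17 of 21 changes were negative. ANPEP, the brush border aminopeptidase N, was at 7.10, 7.34, 7.13 and 6.87 on day 4 and at 6.20, 5.49, 6.85 and 5.49 on day 7. It was at the control level of 7.22 ± 0.10 (SD, n = 4) on day 4 and 1.21 below it on day 7 (2.15-fold between days, limma, adjusted p = 0.0179). SLC6A19, the transporter of neutral amino acids, fell 2.45-fold (limma, adjusted p = 0.0365), and APOB, the protein of chylomicrons, 2.38-fold (limma, adjusted p = 0.0258), both from the control level to more than 2-fold below it. The SLC6A19 difference was -2.34 within slide 5 and 0.16 within slide 6. The 3 calls were kept in 4, 4 and 3 of the 8 left-out fits. FABP1, the cytosolic fatty acid carrier, was at 6.07, 6.60, 6.87 and 6.59 on day 4 and at 7.58, 7.06, 7.35 and 6.99 on day 7, without overlap but below 2-fold (0.71 ± 0.30, limma, adjusted p = 0.175). The median of the brush border list relative to control was -0.70 and -1.11 in day 7 replicates 2 and 4 and -0.42 and -0.11 in replicates 1 and 3. The median of its 7.4-Gy changes was -0.49, and that of its 6.7-Gy changes was 0.20. The difference between doses was not past the test in any of its genes.

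Genes of the respiratory chain had mostly positive changes, all below 2-fold on the brightest probe of each gene. Of 61 tested genes of oxidative phosphorylation none was called, 59 had a positive change, 34 had a limma adjusted p below 0.05 at a smaller fold, and in 37 every day 7 array was above every day 4 array, against 9.95% of all probes that did not overlap in either direction. The median change was 0.56. UQCRH, a subunit of complex III, stood at 4.26, 4.67, 4.52 and 4.88 on day 4 and at 5.60, 5.52, 5.66 and 5.28 on day 7 (0.93 ± 0.14, limma, adjusted p = 0.00237), and SDHD, of complex II, went from 3.04, 3.28, 3.27 and 3.45 to 4.25, 4.05, 4.27 and 3.74 (0.82 ± 0.13, limma, adjusted p = 0.00251). Dimmer probes of SDHC, of complex II (1.05), UQCRC2, of complex III (1.04), and NDUFA10, of complex I (1.18), did pass, with limma adjusted p of 0.000868, 0.0102 and 0.00535. The list's median lay 0.53 below control on day 4 and 0.04 above it on day 7, and the 4 day 4 arrays, at -0.63, -0.58, -0.50 and -0.30, lay below all 4 day 7 arrays, at 0.09, 0.07, 0.21 and -0.18. Ribosomal protein genes gave 53 positive changes of 56, with a median of 0.30 and none called; 2 had a limma adjusted p below 0.05 and 21 an unadjusted p below 0.05. The sign of both medians was the same under every scaling tried, at 0.45 to 0.65 and 0.20 to 0.37 over all alternatives and left-out arrays.

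Hormone genes of enteroendocrine cells moved in both directions. Of 13 tested genes of the enteroendocrine list, 2 rose and 1 fell, against 0.833% and 0.901% of all symbols. Of the 13 changes 8 were positive and 5 negative. PYY, peptide YY, was at -3.16, -4.24, -3.66 and -3.14 on day 4, where 2 of the 4 arrays were well above background, and at -1.96, -1.32, -1.78 and -2.73 on day 7, a fitted rise of 1.60 on the log2 scale (limma, adjusted p = 0.0138). With all signals raised to a common floor, the PYY change was 0.15 and did not pass, so its size is not settled. GCG, the proglucagon gene, rose 2.42-fold to 1.34 above control. NTS, neurotensin, fell 3.63-fold to 1.41 below control, with overlap of the days (limma, adjusted p = 0.0467). The GCG call was kept in 2 of the 8 left-out fits. The label of jejunum was set against markers of neighbouring bowel. FABP6, the bile acid binding protein of ileum, was at 5.88, 3.12, -0.34 and 1.26 on day 4 and at -2.05, 1.78, -1.63 and -1.83 on day 7, against -2.13 ± 0.63 (SD, n = 4) in controls (limma, adjusted p = 0.131). ADA, adenosine deaminase, which is high in proximal bowel, was at 1.39, 1.23, 1.40 and 2.06 on day 4 and at 0.99, 0.37, 4.92 and 1.10 on day 7, against 4.90 ± 1.31 (SD, n = 4) in controls (limma, adjusted p = 0.871). For both genes the days overlapped, and day 7 replicate 3 alone was at the control level of ADA.

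HBB, beta globin, was at 2.67 ± 1.02 (SD, n = 4) in controls, at -2.09, -3.98, -4.04 and -4.74 on day 4 and at -4.80, -6.38, -7.15 and -5.45 on day 7, but only 1 array of day 4 and 2 of day 7 were well above background, and the change did not pass (limma, adjusted p = 0.0797). MT2A, a metallothionein that binds zinc, was 3.27 above control on day 4 and 3.64 above it on day 7 (change 0.37, limma, adjusted p = 0.752), with day 4 replicate 1 at 4.06 and the other 7 arrays at 6.09 to 7.51. No gene of the erythroid (5 tested), metallothionein and zinc (9), iron (11), cholesterol (17), purine breakdown (12), goblet (12), tuft (7), B and plasma cell (10), T and NK cell (17), neutrophil (4), mast cell and eosinophil (9), platelet (2), adipocyte (5), heat shock (22), unfolded protein (15), tight junction (13) or growth factor (12) list was called by limma; the numbers with an unadjusted p below 0.05 were 0 to 7 a list, the most in T and NK cells. T and NK cell genes were negative in 15 of 17. Of 26 interferon response genes IDO1, which breaks down tryptophan, fell (2.17-fold), against 0.901% of all symbols, and was kept in 2 of the 8 left-out fits.

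**Figure D4:**
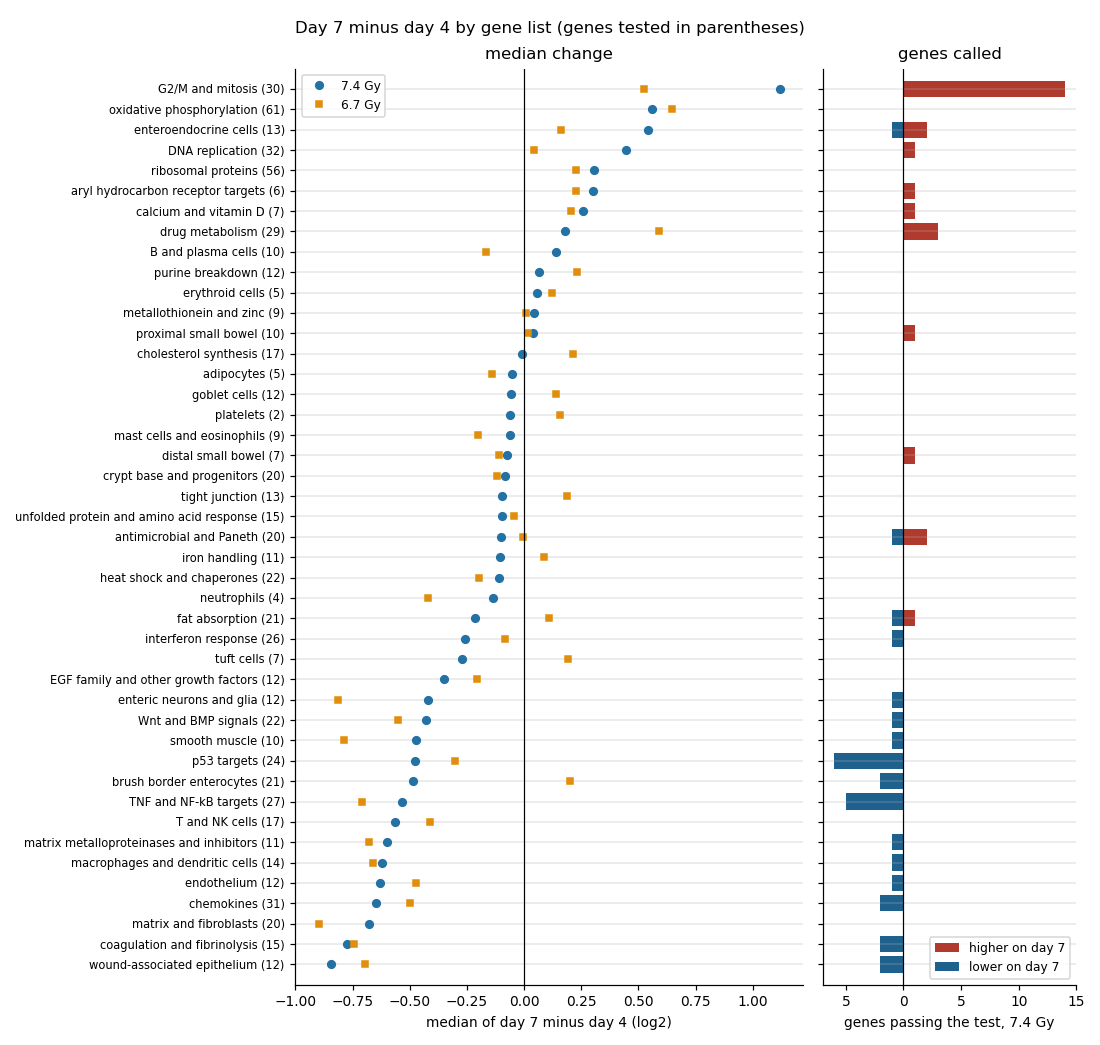
Left, median change from day 4 to day 7 (log2) of the tested genes of each of 44 lists after 7.4 Gy (circles) and 6.7 Gy (squares); right, number of genes called after 7.4 Gy, higher to the right of 0 and lower to the left. The mitosis list had the highest median, 1.12, and wound-associated epithelium the lowest, -0.85.

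The 6.7-Gy animals, which share no array with the 7.4-Gy groups, showed the same interval. Of the 463 probes, 453 (97.8%) had the same direction after 6.7 Gy, against 72.2% of all probes tested, and 138 passed the test there too, where 436 probes (1.55%) were called. The 138 were 29.8% of the 7.4-Gy calls and 31.7% of the 6.7-Gy calls, and none of them had opposite directions. The median change of the probes higher on day 7 was 1.23 after 7.4 Gy, the dose by which they were chosen, and 0.90 after 6.7 Gy, and that of the lower probes was -1.23 and -0.78. GDF15 (-2.18 after 6.7 Gy, limma, adjusted p = 0.00216), DARC (-1.99; adjusted p = 0.000608), FXYD3 (1.81; adjusted p = 0.00472) and NQO1 (1.75; adjusted p = 0.00326) changed at both doses. Position on the slide went with the day at both doses, and its part in the shared direction was not tested.

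The difference between the doses in the change from day 4 to day 7 was tested directly, and no probe passed it in limma (smallest adjusted p = 0.9996). At an unadjusted p below 0.05 and 2-fold, 271 probes of 28168 did so. SGK1 changed by -1.97 after 7.4 Gy and by -0.58 after 6.7 Gy (unadjusted p of the difference 0.00328 in limma) and BMP2 by -1.53 and -0.49 (unadjusted p = 0.011 in limma). Neither passed over all probes. Mitotic genes had a median of 1.12 after 7.4 Gy and 0.52 after 6.7 Gy, with 14 and 0 called and 30 and 29 of 30 positive. The unadjusted p of the difference was below 0.05 in 3 of the 30, and none passed over all probes. The p53 targets had medians of -0.48 and -0.30 and 6 called at each dose.

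**Figure D5:**
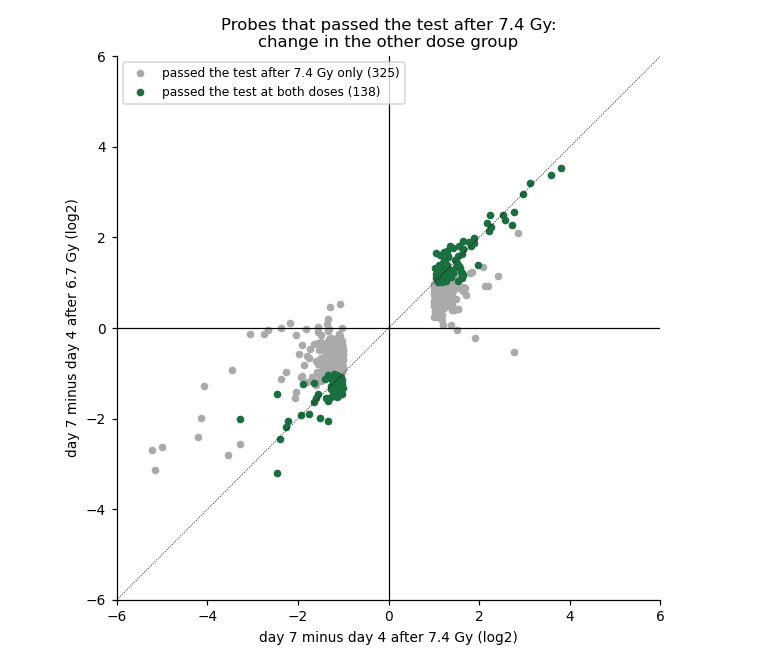
Change from day 4 to day 7 (log2) after 7.4 Gy (horizontal) and after 6.7 Gy (vertical) of the 463 probes that changed after 7.4 Gy, with a dotted line of equality. Green points, 138, passed at both doses and grey points, 325, after 7.4 Gy only; most points lie on the same side of 0 at both doses.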

How the data were processed

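RNA was hybridized to 1-color Agilent rhesus 4x44K arrays. The authors deposited scanner files of Agilent Feature Extraction 11.0.1.1, whose gProcessedSignal is a background-subtracted intensity on a linear scale, and a table of log2 values that they had scaled to each array's 75th percentile in GeneSpring GX. A deposited table of the same signals before normalization was not used. Here spots of a probe were averaged without non-uniform ones, and levels were log2 intensity minus the array's 75th percentile over non-control probes. With each probe's median over the 24 arrays subtracted, they differed from the authors' log2 table by a median of 0.000414 and by at most 3.82. limma 3.58.1 in R 4.3.3 (lmFit, eBayes) was fitted to all 24 arrays as 7 groups, with Benjamini-Hochberg adjustment over 28168 of 43603 probes. Groups came from the titles. Gene lists used the brightest probe of a symbol; 23674 probes had a symbol from the authors' table, 121 from a RefSeq accession and 19808 none. Genes with values are the 12 largest rises and falls measured on all 8 arrays without overlap, the 2 of smallest p in each list, and 30 fixed genes, of which 25 were tested; others are named as called members of a list. The members, lists and named genes were chosen with earlier results of these data known. normexp, run as an alternative, took gMedianSignal because the files hold no mean signal column. The number of arrays limits the precision. Nothing in the labels pairs day 4 with day 7 animals, and p-values measure the spread between animals of a group. The fit was tested on simulated data before use. Some results are not reported here.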

Additional observations from a re-analysis of the deposited data

Results flagged for a closer look

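Among the 54 named probes that were called, 108 groups of 4 arrays were searched for a single array far from the other 3, and 3 were found; chance gives about 1 in 20. The GDF15 level of day 4 replicate 2, 4.44, stood above the other 3, at 3.96 to 3.97, by 0.970 of the group's range, a range that is narrow beside the fall to day 7. The DLGAP5 level of day 4 replicate 4, 0.19, stood above the other 3, at -1.03 to -0.83, by 0.831 of the range. The LOC706971 level of day 4 replicate 1, -0.61, stood below the other 3, at 1.59 to 1.94, by 0.865 of the range.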

How the results depend on the processing

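Of the 20 other settings and 8 left-out arrays, 16 left the calls within 1.5 times of 463. The probes were not always the same: with slide as a fixed block 381 were called, 274 of them among the 463, with normexp 327 and 292, and with array weights 467 and 386. The rest moved the counts. In the split into return to baseline or new change, 170 probes had returned in full or in part and 97 were new. The numbers of calls, of returned probes and of new changes were 261, 106 and 49 with no filter on dim probes, 12, 8 and 3 when the 8 arrays alone were fitted, 246, 99 and 46 when those and the controls were, 67, 32 and 10 without slide 5, 217, 85 and 50 with 1 probe a symbol (11878 tested), and 0, 0 and 0 both by the methods' t-test (700 at an unadjusted p below 0.05 and 2-fold) and in limma on slides 5 and 6 alone (989). Calls were 301 and new changes 50 with a common floor, and new changes were 52 with normexp and 62 over the 16639 probes measured on all 8 arrays. Leaving out 1 array gave 184 to 698 calls, 78 to 263 returned or partly returned and 31 to 118 new. All 463 kept their sign in every one of these fits that tested them except under the floor, with 434. Within slides 5 and 6, each with 1 array of either day, 455 had the same sign on both and 8 did not. The 463 were chosen by this change, and several fits return the same difference of means. Agreement of sign, here and for the named probes below, was therefore largely fixed in advance. The difference between doses gave 0 calls in all 25 settings that could test it, the methods' t-test included. The replicate numbers did not pair the animals (correlations of deviations -0.13, 0.08, -0.10 and 0.01), and the replicate block gave 454 calls. Array position could not be fitted as a block. The 54 named probes that were called changed sign in none of these fits, but ANXA3 and SLC6A19 turned within slide 6 (0.25 and 0.16) and 52 did not within slide 5 or 6, and 21 kept their call with any 1 array left out; why calls were lost was not tested. Detection of 39.4% to 85.5% of probes an array limits dim genes. The signs of these list medians turned under at least 1 setting: crypt base, fat absorption, cholesterol, iron, metallothionein, purine, interferon, antimicrobial, goblet, enteroendocrine (0.54 as reported, -0.05 over the probes measured on all 8 arrays), tuft, B cell, mast cell, erythroid, adipocyte, proximal bowel and tight junction.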

Other observations

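Of the 234 symbols called, 173 were in no list, and 2 groups among them were picked out after their values were seen, so they carry no test as groups. Some enzymes of mitochondrial and peroxisomal metabolism were among the genes called higher on day 7. Enzymes of this kind that were tested and not called were not counted, so nothing is said of the group as a whole. Those called included IDH1 (2.33-fold), OXCT1, which burns ketone bodies (2.35-fold), ACAT1, their thiolase (2.24-fold), and PCCA of propionate breakdown (2.18-fold). Others were SUCLG2 (2.17-fold) and FH (2.16-fold) of the citrate cycle, HADH of fatty acid oxidation (2.03-fold), PDHA1 of pyruvate dehydrogenase (2.03-fold) and CAT, catalase (2.41-fold). CPS1, the first enzyme of the urea cycle and of citrulline synthesis in gut, rose 2.53-fold from the control level (2.71 ± 0.36 on day 4 against 2.71 ± 0.32 in controls and 4.05 ± 0.16 on day 7, SD, n = 4 each; limma, adjusted p = 0.00149), and OTC, the enzyme that follows it, rose 2.19-fold. CPS1 rose after 6.7 Gy as well, by 1.31 (limma, adjusted p = 0.00148).

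CD74 and some genes of MHC class II were lower on day 7. They were chosen after their values were seen. Falls were not confined to class II: probes of the class I genes MAMU-A (-2.66, with overlap of the days) and MAMU-F (-1.32) were called lower as well. Class I probes were not counted as a set. CD74, the invariant chain of MHC class II, fell 2.03-fold from 4.88 ± 0.31 to 3.86 ± 0.20 (SD, n = 4 each; limma, adjusted p = 0.0095), with controls at 4.88 ± 0.11, and of 24 tested probes of 11 MHC class II symbols 8 fell, by 1.00 to 1.44, those of MAMU-DRB1, MAMU-DRB5, MAMU-DPB and MAMU-DQB1, against 0.792% of all probes. Markers of macrophages and dendritic cells, which carry MHC class II, were mostly lower on day 7 too. Of 14 tested, 11 had a negative change, against 46.9% of all symbols. In 6 every day 7 array was below every day 4 array, against 9.95% of all probes without overlap in either direction. None was below background on all 4 arrays of a day. Their summed signal, relative to each array's 75th percentile, was 71.8 to 87.7 in controls, 112 to 126 on day 4 and 60.1 to 89.8 on day 7. It was thus above control on day 4, when CD74 was at its control level. The part of these cells in the falls of CD74 and MHC class II was not tested. MHC genes are alike and vary between macaques, so their probes may not tell the genes or alleles apart. GUCA2B, uroguanylin, fell 2.07-fold beside guanylin.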
